A study of Saccharomyces cerevisiae with 21 samples.

Results

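The expression of 10 genes of Saccharomyces cerevisiae that encode folding machinery of the endoplasmic reticulum (ER) or the signalling pathway that controls it was followed through a wine fermentation. They were chosen by name (KAR2, LHS1, SIL1, SCJ1, JEM1, PDI1, EUG1, ERO1, IRE1 and HAC1), and all 10 were found among the 5656 genes measured. Each gene was represented by the probe set annotated to it alone, and by the one with the highest mean over 21 arrays where there were several, which among the 10 was so only for HAC1, with 5 probe sets. The 21 one-colour Affymetrix arrays cover 7 times of harvest with 3 biological replicates apiece: 1, 12, 24, 48, 60, 120 and 340 h. The design text gives the last 5 times as the main study and ties them to ethanol levels of roughly 0.5% (24 h), 2% (48 h), 3.5% (60 h), 7% (120 h) and 10% (340 h), and it gives none for 1 h and 12 h. The labels name no strain, allele or medium, no array is of an untreated culture, and time, ethanol and everything else that changes in a fermentation cannot be told apart.

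Secretory and membrane proteins enter the ER unfolded, where the Hsp70 chaperone Kar2 (the yeast BiP) binds them in cycles of ATP hydrolysis that J-domain proteins start and nucleotide exchange factors reset, while Pdi1 and its relatives form and rearrange disulfide bonds with oxidising power from Ero1. When unfolded proteins build up, the membrane sensor Ire1 cuts an intron out of HAC1 mRNA in the cytoplasm, and the spliced message yields the transcription factor Hac1, which raises KAR2, PDI1, EUG1, ERO1, LHS1 and other ER genes in the unfolded protein response (UPR). Arrays of this kind report the amount of a transcript, and the annotation used here does not say which part of HAC1 a probe set detects, so splicing was not measured.

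Levels below are log2 probe set signals, changes are log2 differences between times with their standard error, and a gene rose or fell where limma's two-sided test had a Benjamini-Hochberg adjusted p under 0.05 over all 5656 genes. Array medians ran from 6.62 to 6.90. The array of 24 h replicate 3 had a mean correlation across genes of 0.960 with the other 24 h arrays, against 0.974 to 0.991 for every other array with its group, so results against 24 h are also given without it where that changed them. RMA values, the deposited scale, show changes relative to the other genes only. When each array was centred instead on 5 conventional reference genes (ACT1, TFC1, TAF10, PDA1 and IPP1), the median change of all genes shifted by -0.23, -0.43, -0.39 and 0.43 at 48, 60, 120 and 340 h against 24 h, by 0.43 at 24 h against 12 h, by -0.20 at 60 h against 48 h and by 0.82 at 340 h against 120 h, but by only -0.01 at 12 h against 1 h and 0.04 at 120 h against 60 h. The share of called genes that were higher then became 39.8%, 19.7%, 26.5% and 65.9% at 48, 60, 120 and 340 h against 24 h, where it was 60.3%, 52.1%, 50.0% and 43.5% on the deposited scale. It became 97.6% between 24 h and 12 h (38.5% as deposited), 20.1% between 60 h and 48 h (43.1%), 62.0% between 120 h and 60 h (48.1%) and 96.8% between 340 h and 120 h (37.4%), where array medians gave 48.4%.

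The 10 genes did not move as one group. By 340 h, against 24 h, KAR2, PDI1, ERO1 and HAC1 had risen, EUG1, SCJ1 and JEM1 had fallen, and LHS1, SIL1 and IRE1 had not passed the test. In these bulk samples, fewer cells that carry a transcript and less of it per cell cannot be told apart. Over all genes, 27.8% rose and 36% fell in that comparison, so the number called (4 higher and 3 lower of 10) is close to the background, and the median change of the 10 was 0.05 against -0.13 for all genes. At 120 h against 24 h, 3 rose (PDI1, ERO1, HAC1) and 2 fell (LHS1, EUG1), where 26.6% of all genes rose and 26.6% fell. At 60 h, 2 rose (ERO1, HAC1) and 2 fell (LHS1, EUG1), against a background of 22.6% higher and 20.8% lower. The direction of these counts depends on the scale: on the reference genes 0 rose and 4 fell at 60 h (LHS1, SIL1, JEM1 and EUG1), 2 rose and 3 fell at 120 h, and 4 rose and 0 fell at 340 h. Of all 5656 genes on that scale, 2199 were called at 60 h (434 higher), 2619 at 120 h (695 higher) and 2888 at 340 h (1904 higher). At 48 h none of the 10 passed, where 12.8% of all genes rose and 8.42% fell. EUG1 was nearest, with a change of -0.58 ± 0.21 (limma adjusted p = 0.0568), and without 24 h replicate 3 ERO1 passed upward (0.52, limma adjusted p = 0.0483).

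Between neighbouring times few of the genes passed. At 12 h against 1 h, 2 rose (PDI1, EUG1) and 5 fell (KAR2, SIL1, JEM1, ERO1, IRE1), where 26% of all genes rose and 33.9% fell. On the reference genes 1 rose (EUG1) and 2 fell (SIL1, ERO1) there. Of all 5656 genes, 2464 were called on that scale, 1065 of them higher. None passed at 24 h against 12 h (background 0.796% higher and 1.27% lower) or at 60 h against 48 h (3.48% and 4.6%). ERO1 alone rose at 120 h against 60 h (4.6% higher and 4.95% lower), and at 340 h against 120 h KAR2 rose and JEM1 fell (15.9% and 26.6%). With the replicate number as a block, which the arrays of 120 h and 340 h bear out, LHS1 (limma adjusted p = 0.0493) and SCJ1 (limma adjusted p = 0.0472) passed as well at 340 h against 120 h. On the reference genes 7 rose and 0 fell in that last comparison. Of all 5656 genes, 2662 were called there on that scale, 2577 of them higher. SCJ1 also passed in that comparison, on the deposited scale, without 340 h replicate 2 (-0.62), against -0.45 ± 0.18 with it. A moderated F test for any change over the 5 times of the main study called 8 of the 10 genes, where 73.8% of all genes were called. SIL1 (limma adjusted p = 0.119) and IRE1 (limma adjusted p = 0.121) were the 2 that did not pass it.

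**Figure D1:**
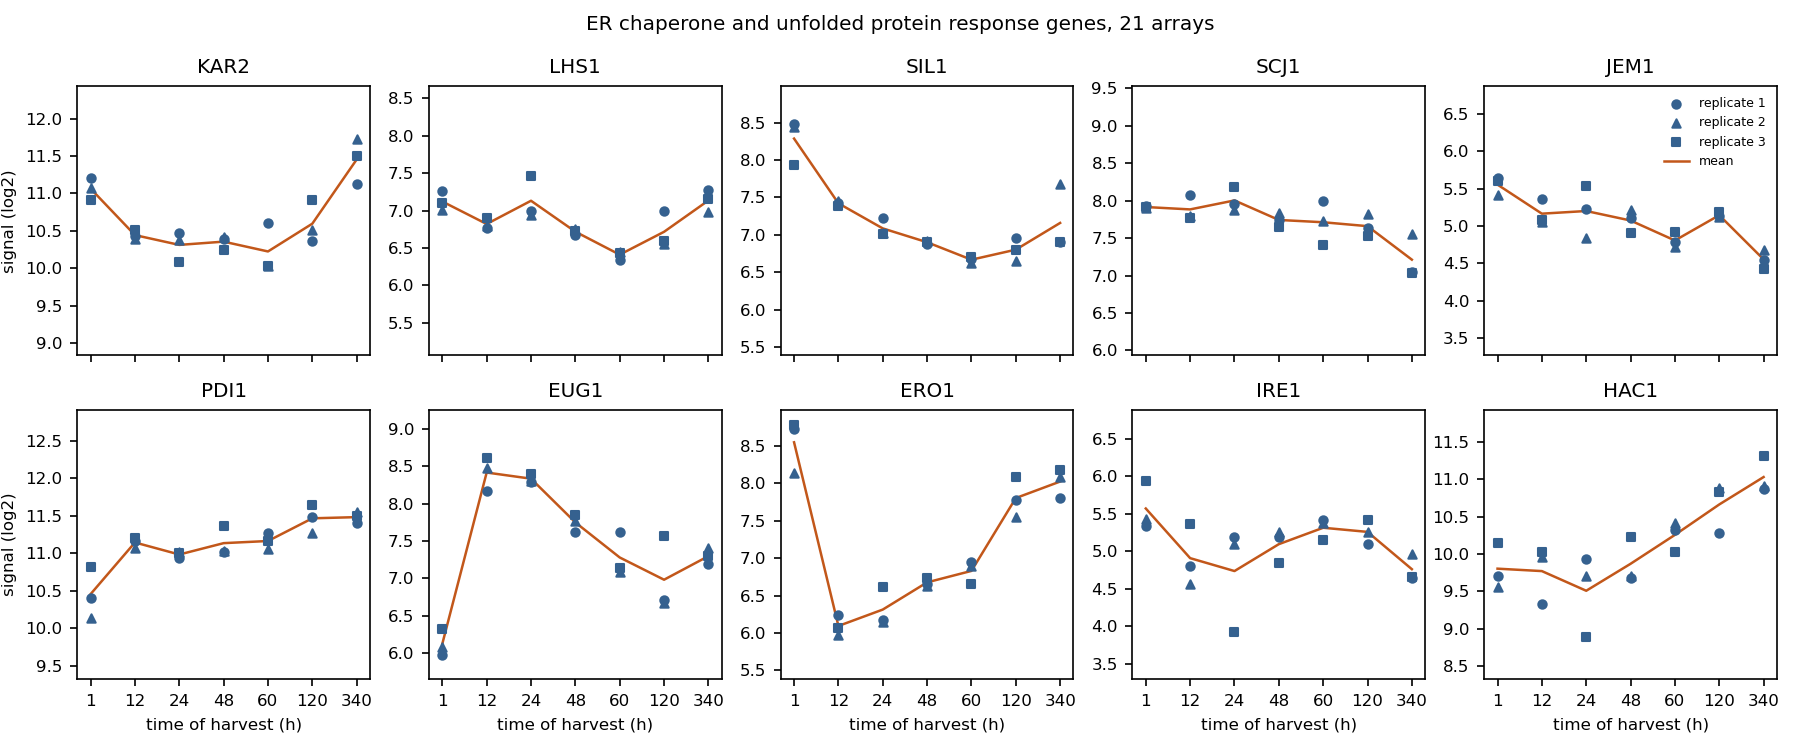
Log2 signal (vertical axes, each spanning the same width) of the 10 genes on each array at the 7 times of harvest (horizontal axes, evenly spaced, in h), with replicates as symbols and the mean as a line. KAR2 is highest at 340 h, the mean of HAC1 climbs after 24 h, and ERO1 and EUG1 run opposite to each other between 1 h and 120 h.

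KAR2 encodes the central Hsp70 of the ER lumen, which also helps pull proteins through the translocon and is needed for nuclear fusion in mating. Its signal on the 3 arrays was 11.21, 11.07 and 10.91 at 1 h, 10.43, 10.38 and 10.51 at 12 h, and 10.47, 10.38 and 10.09 at 24 h. It then read 10.39, 10.42 and 10.25 at 48 h, 10.60, 10.03 and 10.03 at 60 h, 10.36, 10.51 and 10.91 at 120 h, and 11.13, 11.73 and 11.50 at 340 h. The gene was thus high at both ends of the fermentation and flat between them, with the 340 h arrays above every array from 12 h to 120 h, while those of 340 h and 1 h overlapped. The mean was 11.45 ± 0.30 at 340 h and 10.31 ± 0.20 at 24 h (SD, n = 3 each), a rise of 1.14 ± 0.20 or 2.21-fold (limma adjusted p = 8.89e-05). Most of it came in the last interval, where 340 h exceeded 120 h by 0.86 ± 0.20 (limma adjusted p = 0.00273). The early fall to 12 h, against 1 h, was -0.62 ± 0.19 (limma adjusted p = 0.00729). On the reference genes it was of like size but did not pass (-0.63, limma adjusted p = 0.0757). In order of level the times ran 60, 24, 48, 12, 120, 1 and 340 h, and the arrays of each neighbouring pair overlapped.

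LHS1 and SIL1 encode the nucleotide exchange factors of Kar2, Lhs1 being itself a distant relative of Hsp70. LHS1 read 6.34, 6.45 and 6.44 at 60 h, its lowest time, against 6.99, 6.94 and 7.46 at 24 h, with no overlap. The fall was -0.72 ± 0.17 (limma adjusted p = 0.00245), and it was -0.56 without 24 h replicate 3, the highest of its group (limma adjusted p = 0.0118). At 120 h the fall against 24 h was -0.41 ± 0.17 (limma adjusted p = 0.0495), which did not pass without 24 h replicate 3 (-0.25, limma adjusted p = 0.208), 120 h replicate 2 (-0.33) or 120 h replicate 3 (-0.35). By 340 h its mean of 7.13 ± 0.14 was level with 7.13 ± 0.28 at 24 h, and the interval of the difference reached from -0.36 to 0.36. LHS1 thus formed a trough at 60 h. At 340 h against 120 h its change of 0.42 ± 0.17 missed the threshold (limma adjusted p = 0.0570) and passed without 340 h replicate 2 or 120 h replicate 1 (0.49 and 0.56).

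SIL1 read 7.42, 7.45 and 7.39 at 12 h, against 8.48, 8.45 and 7.93 at 1 h, its highest time. Its fall to 12 h, against 1 h, was -0.87 ± 0.19 (limma adjusted p = 3.85e-04), and it was the third largest among the 7 changes called there by size. The mean then went down through 7.09 (24 h), 6.90 (48 h) and 6.67 (60 h). With arrays weighted equally, no change against 24 h passed on the deposited scale. At 60 h that change was -0.42 ± 0.19 (limma adjusted p = 0.0796), and it passed on the reference genes (-0.85, limma adjusted p = 0.0264) and with array weights (-0.41, limma adjusted p = 0.0115), as did -0.36 at 120 h with array weights (limma adjusted p = 0.00842). At 340 h the arrays were uneven, at 6.90, 7.68 and 6.90, with replicate 2 above all arrays of 24 to 120 h.

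SCJ1 and JEM1 encode J-domain partners that stimulate the ATPase of Kar2, in the lumen and at the ER membrane. SCJ1 was nearly constant up to 120 h, with means between 7.66 and 8.00, and lower at the end: 7.04, 7.55 and 7.04 at 340 h against 7.95, 7.88 and 8.18 at 24 h, with no overlap. The fall was -0.79 ± 0.18 (limma adjusted p = 0.00108). At 120 h against 24 h the change of -0.34 ± 0.18 did not pass (limma adjusted p = 0.126), and on the reference genes it did (-0.73, limma adjusted p = 0.0446). JEM1 read 4.55, 4.68 and 4.43 at 340 h, below every array of the other 6 times, and 5.23, 4.84 and 5.53 at 24 h. Its fall was -0.65 ± 0.17 (limma adjusted p = 0.00318) against 24 h and -0.59 ± 0.17 (limma adjusted p = 0.0106) against 120 h. The mean signal of JEM1 over all arrays lay at the 16.6th percentile of genes, so its changes are read from a weak signal. On the reference genes neither fall against 24 h passed (SCJ1 -0.36, JEM1 -0.22), and the change of JEM1 against 120 h turned to 0.23 (limma adjusted p = 0.522). The earlier fall of JEM1, by 0.39 at 12 h against 1 h (-0.39 ± 0.17, limma adjusted p = 0.0495), did not pass without 12 h replicate 2 or 3 or without 1 h replicate 1 or 3. At 60 h against 24 h JEM1 changed by -0.39 ± 0.17 (limma adjusted p = 0.0740), and it passed without 24 h replicate 2 (-0.57) and on the reference genes (-0.83), while without 24 h replicate 3 it was -0.23 (limma adjusted p = 0.293).

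Among the thiol-disulfide genes, ERO1 and EUG1 had the widest ranges of means of the 10 (2.45 and 2.29 on the log2 scale), and PDI1 ranged by 1.03. PDI1, the essential protein disulfide isomerase, read 11.16, 11.08 and 11.20 at 12 h, against 10.41, 10.14 and 10.82 at 1 h, its lowest time. That early rise was 0.69 ± 0.17 (limma adjusted p = 0.00110). On the reference genes it was of like size but did not pass (0.68, limma adjusted p = 0.0580). The gene then stayed within a narrow band: 10.94, 11.01 and 11.00 at 24 h, up to 11.49, 11.28 and 11.64 at 120 h and 11.41, 11.55 and 11.49 at 340 h. Against 24 h it rose by 0.48 ± 0.15 at 120 h (limma adjusted p = 0.0131) and by 0.50 ± 0.15 or 1.41-fold at 340 h (limma adjusted p = 0.00846), with all later arrays above the 24 h ones. At 120 h the rise did not pass on the reference genes (0.10) or without 120 h replicate 3 (0.40, limma adjusted p = 0.0592), while at 340 h it did on the reference genes (0.93).

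EUG1 encodes a relative of Pdi1 that is dispensable for growth and whose overproduction can in part replace Pdi1. Its arrays read 5.98, 6.08 and 6.33 at 1 h, 8.17, 8.47 and 8.61 at 12 h, and 8.29, 8.31 and 8.40 at 24 h. They then came down to 7.63, 7.77 and 7.85 at 48 h, 7.62, 7.08 and 7.14 at 60 h, and 6.71, 6.67 and 7.57 at 120 h, and stood at 7.19, 7.40 and 7.31 at 340 h. EUG1 therefore peaked at 12 to 24 h, when its arrays lay above those of every other time. The rise to 12 h, against 1 h, was 2.29 ± 0.20 or 4.88-fold (limma adjusted p = 2.73e-09). Against 24 h it fell by 1.05 at 60 h (-1.05 ± 0.21, limma adjusted p = 6.24e-04), by 1.35 at 120 h (-1.35 ± 0.21, limma adjusted p = 3.54e-05) and by 1.03 at 340 h (-1.03 ± 0.21, limma adjusted p = 3.27e-04). On the reference genes the falls at 60 h and 120 h held and that at 340 h did not (-0.61, limma adjusted p = 0.0574). At 340 h against 120 h the change was 0.32 ± 0.21, and it passed without 120 h replicate 3, the highest of its group (0.61).

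ERO1, the flavin-dependent oxidase that recharges Pdi1, took the opposite course. It read 8.72, 8.14 and 8.79 at 1 h, 6.25, 5.98 and 6.06 at 12 h, and 6.17, 6.15 and 6.62 at 24 h. It then climbed through 6.66, 6.63 and 6.74 at 48 h and 6.95, 6.89 and 6.65 at 60 h to 7.77, 7.55 and 8.08 at 120 h and 7.80, 8.09 and 8.18 at 340 h. The levels formed 3 blocks whose arrays did not overlap: 12 and 24 h at the bottom, 48 and 60 h between, and 120, 340 and 1 h at the top. The fall to 12 h, against 1 h, was -2.45 ± 0.19 (limma adjusted p = 2.50e-10), the largest change of the 10 genes, 5.48-fold. Against 24 h it rose by 1.49 ± 0.18 at 120 h (limma adjusted p = 1.97e-06) and by 1.71 ± 0.18 or 3.27-fold at 340 h (limma adjusted p = 2.14e-07), both also on the reference genes. The step from 60 h was the main one, with 120 h higher by 0.97 ± 0.18 (limma adjusted p = 0.00212). The smaller rise at 60 h against 24 h (0.52 ± 0.18, limma adjusted p = 0.0275) did not pass on the reference genes (0.09), nor without 60 h replicate 1 or 2 or 24 h replicate 1 or 2. Over the 7 means the Pearson correlation of ERO1 with EUG1 was -0.92, a description over 7 points that share their arrays.

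**Figure D2:**
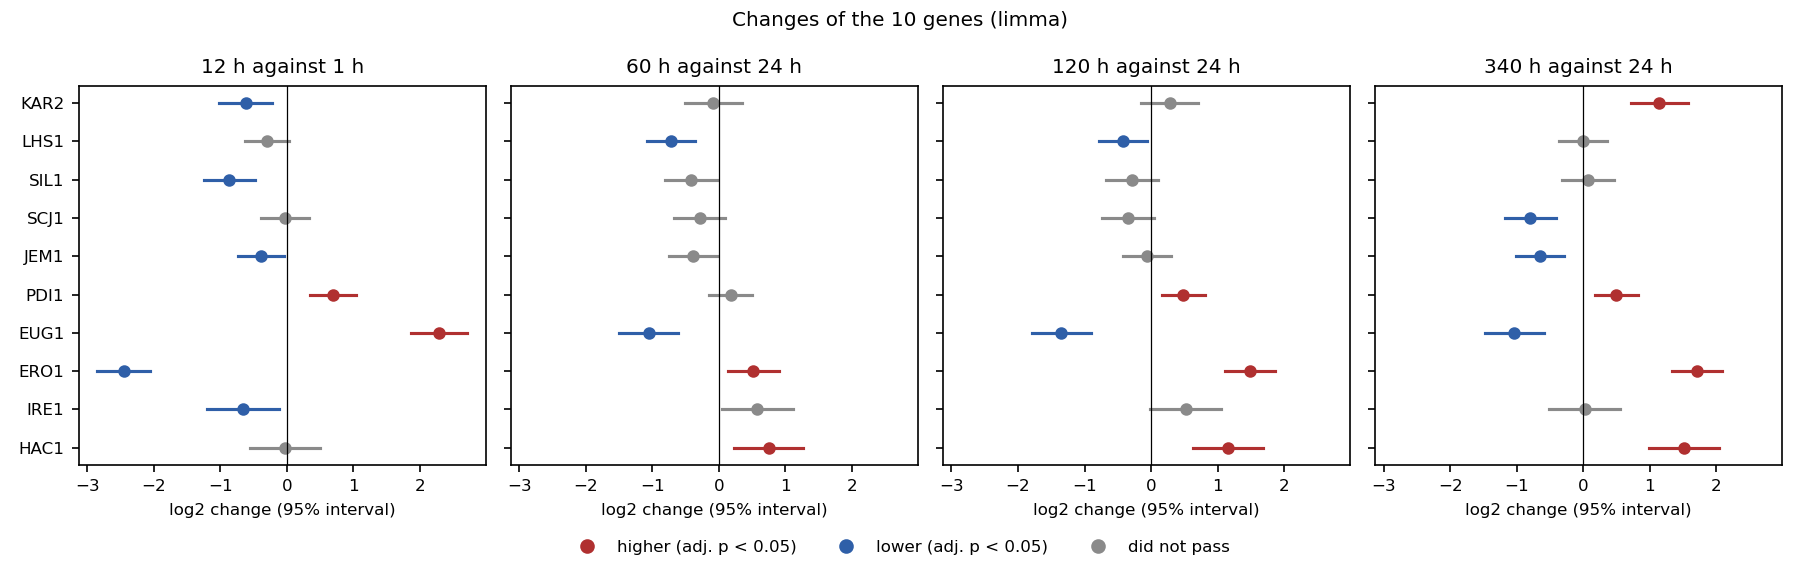
Log2 change of each of the 10 genes (points) with its 95% interval from limma (bars) in 4 comparisons, coloured by whether the gene was called higher, lower or neither. EUG1 is above 0 at 12 h against 1 h and below it in all 3 comparisons with 24 h, and ERO1 does the reverse.

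IRE1, the sensor, had a weak signal, with its mean over all arrays at the 17.0th percentile of genes. It read 4.81, 4.56 and 5.36 at 12 h, against 5.34, 5.43 and 5.95 at 1 h, with 1 overlapping array. The fall was 0.66 at 12 h (-0.66 ± 0.26, limma adjusted p = 0.0325). On the reference genes it was of like size but did not pass (-0.67, limma adjusted p = 0.0917). Nor did it pass without 12 h replicate 1 or 2 or 1 h replicate 3. At 24 h the arrays read 5.19, 5.10 and 3.92, and no change against 24 h passed. The changes of 0.58 ± 0.25 at 60 h (limma adjusted p = 0.0732) and 0.52 ± 0.25 at 120 h (limma adjusted p = 0.0910) were 0.17 and 0.11 without 24 h replicate 3, and passed without 24 h replicate 1 (0.80 and 0.75) or replicate 2 (0.76 and 0.71). Without 24 h replicate 3 the changes at 48 h and 340 h were -0.05 and -0.38 (limma adjusted p = 0.878 and 0.0641), against 0.36 and 0.02 with it. Later levels stayed between 4.65 and 5.42 on every array from 48 h to 340 h.

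HAC1, the transcription factor, had means that climbed from 24 h on, though the step to 48 h depended on 24 h replicate 3. On its brightest probe set, 3943_i_at, the arrays read 9.70, 9.56 and 10.15 at 1 h, 9.33, 9.95 and 10.03 at 12 h, and 9.93, 9.70 and 8.90 at 24 h. They read 9.68, 9.70 and 10.23 at 48 h, 10.32, 10.42 and 10.03 at 60 h, 10.28, 10.88 and 10.83 at 120 h, and 10.87, 10.91 and 11.31 at 340 h. Each mean from 48 h on was higher than the one before, but arrays of successive times overlapped and no single step passed. Against 24 h the rise was 0.75 ± 0.25 at 60 h (limma adjusted p = 0.0217), 1.15 ± 0.25 at 120 h (limma adjusted p = 7.72e-04) and 1.52 ± 0.25 or 2.87-fold at 340 h (limma adjusted p = 3.59e-05). Replicate 3 was the lowest 24 h array, and without it the rises were 0.44 (limma adjusted p = 0.130), 0.85 (limma adjusted p = 0.00440) and 1.21 (limma adjusted p = 1.62e-04). The change at 48 h against 24 h, 0.36 ± 0.25 with that array, was 0.05 without it (limma adjusted p = 0.897). The call at 60 h was also lost without 60 h replicate 1 or 2 and on the reference genes (0.32), whereas those at 120 h and 340 h passed on the reference genes (0.77 and 1.95).

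The other probe sets annotated to HAC1 give further readings of the gene on the same RNA. Whether all of them detect the same form of its transcript is not known. In 340 h cells against 24 h cells, 3942_at rose by 2.74 ± 0.43, 3944_f_at by 1.76 ± 0.29 and 5318_s_at by 2.78 ± 0.47, with limma adjusted p of 2.20e-05, 4.35e-05 and 5.34e-05. The dimmest, 5399_at, stayed between 2.58 and 3.48 on all 21 arrays and changed by 0.51 ± 0.16 (limma adjusted p = 0.00841). At 120 h against 24 h the first 3 of these rose by 1.63, 1.61 and 1.52, and 5399_at did not pass (0.14). Of these, 2 also rose in the last step, 340 h against 120 h: 3942_at by 1.10 ± 0.43 (limma adjusted p = 0.0464) and 5318_s_at by 1.26 ± 0.47 (limma adjusted p = 0.0392), where 3943_i_at changed by 0.37 ± 0.25 and 3944_f_at by 0.15 ± 0.29. Replicate 3 at 24 h was low on these too, at 6.49 on 3942_at (8.73 and 8.19 on the others) and 5.81 on 5318_s_at (8.44 and 7.72). Without it all 5 probe sets still rose at 340 h, from 0.39 on 5399_at to 2.08 on 3942_at, none passed at 60 h, and at 120 h 5318_s_at did not pass (0.76, limma adjusted p = 0.0786). At 48 h the changes without it were -0.30 on 3942_at, -0.41 on 5318_s_at and 0.29 on 3944_f_at, and none passed.

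**Figure D3:**
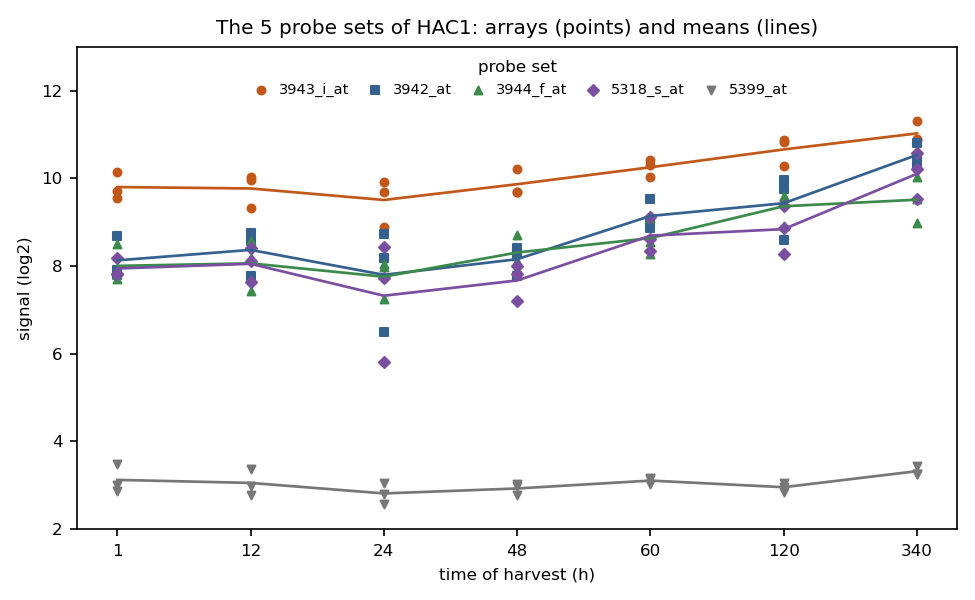
Log2 signal of the 5 probe sets annotated to HAC1 on every array (points) and their means (lines) at the 7 times of harvest, evenly spaced. The means of the 4 brighter probe sets climb after 24 h, where replicate 3 is the lowest array of each, and are highest at 340 h. Probe set 5399_at stays near 3 throughout.

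Other genes of the early secretory pathway were counted by list on the deposited scale. At 340 h against 24 h, all 13 measured genes of the translocon and signal peptidase, which bring proteins into the ER and trim them, were lower, with a median change of -1.22 against -0.13 for all genes, of which 36% fell and 27.8% rose. Among them were SEC66 (-2.53 ± 0.16), a partner of Sec63, the signal peptidase subunit SEC11 (-2.03 ± 0.15) and SEC63 (-1.64 ± 0.20), whose J domain recruits Kar2 to the translocon. Of 9 oligosaccharyltransferase subunits, which attach N-glycans, 8 fell, 0 rose and 1 did not pass (median -1.06), as in WBP1 (-1.37 ± 0.16) and OST3 (-1.33 ± 0.21). Of 15 genes of the COPII coat and its cargo receptors, which carry proteins out of the ER, 11 fell, 1 rose and 3 did not pass (median -1.25), with ERV29 (-2.55 ± 0.24) and SEC12 (-2.12 ± 0.20) lowest and SEC16 (1.14) the riser. Of 6 protein O-mannosyltransferases, 4 fell, 0 rose and 2 did not pass (median -0.59).

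Of 13 other folding enzymes of the ER lumen, 8 fell, 1 rose and 4 did not pass (median -0.74), the largest falls being those of the prolyl isomerases CPR5 (-2.12 ± 0.18) and FPR2 (-1.90 ± 0.18) and the Pdi1 relative MPD2 (-1.47 ± 0.24), and the riser the calnexin CNE1 (0.41). Of 15 genes of ER-associated degradation, which returns misfolded proteins to the cytosol, 4 rose, 3 fell and 8 did not pass (median 0.01), shares at or below those of all genes, with UFD1 (1.74 ± 0.20) and YOS9 (1.29 ± 0.22), the lectin of the Hrd1 complex, higher and CUE1 (-0.99 ± 0.22) lower. Of 7 genes that act on HAC1 splicing or otherwise control the UPR, 2 rose, 2 fell and 3 did not pass (median 0.01). KIN1 (1.59 ± 0.18), a kinase that contributes to HAC1 mRNA processing, and TPT1 (1.54 ± 0.20), which removes the phosphate left by tRNA and HAC1 ligation, rose, and PTC2 (-1.04 ± 0.21), a phosphatase that acts on Ire1, fell. The ligase TRL1, which joins the HAC1 exons, fell by 0.95 (-0.95 ± 0.20, limma adjusted p = 5.16e-04). Its change is read from a weak signal, with a mean of 4.82 at 24 h.

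On the reference genes fewer genes were called lower at 340 h: 7 of 13 translocon genes, 2 of 9 oligosaccharyltransferase genes, 2 of 6 O-mannosyltransferases, 9 of 15 COPII genes and 3 of 13 folding enzymes fell, and the medians of these lists stayed below 0 (-0.79, -0.63, -0.16, -0.82 and -0.31). Over all 5656 genes centred this way, 2888 were called, 1904 of them higher, and the median change was 0.30. SBH1, a translocon gene called lower on the deposited scale (-0.37), changed by 0.05 there. The medians of the degradation and UPR control lists were both 0.44 on the reference genes, where the median of all genes was 0.30. UFD1, YOS9, SSM4 and CDC48, the 4 degradation genes higher on the deposited scale, rose there too and 0 fell, and in the UPR control list KIN1 and TPT1 rose and 0 fell. Without 340 h replicate 3, or without 24 h replicate 2, 2 rather than 4 of the O-mannosyltransferases fell on the deposited scale.

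**Figure D4:**
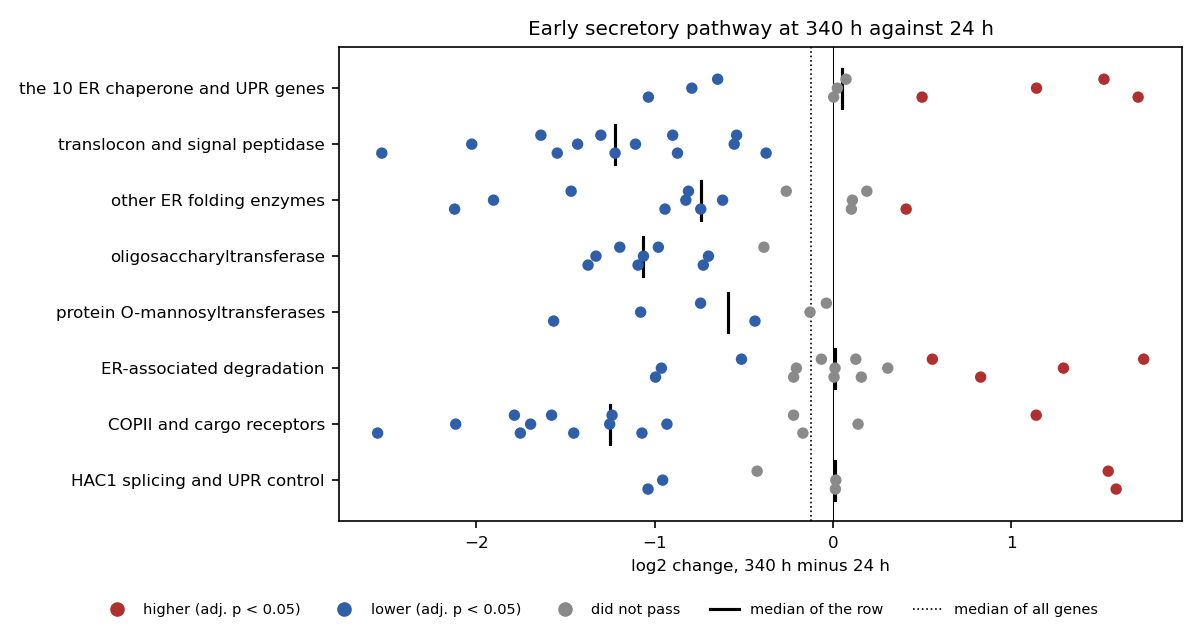
Log2 change at 340 h minus 24 h (horizontal axis) of the 10 ER chaperone and UPR genes (top row) and of the genes of 7 lists of the early secretory pathway (other rows), one point a gene, coloured by call, with black bars for row medians and a dotted line at the median of all genes. The 10 genes are spread from -1.03 to 1.71, and every translocon and signal peptidase gene lies below 0.

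At 60 h against 24 h, when 20.8% of all genes fell and 22.6% rose, 8 of 13 translocon genes, 4 of 6 O-mannosyltransferases, 7 of 15 COPII genes and 3 of 9 oligosaccharyltransferase subunits fell and 0 rose, SEC63 (-1.42 ± 0.20) and the channel gene SEC61 (-1.05 ± 0.20) being the largest falls of the first. These counts moved with single arrays: 5 translocon genes fell without 24 h replicate 3, 3 COPII and 0 oligosaccharyltransferase genes without 60 h replicate 2, and 4 COPII genes without 24 h replicate 1 or 2. At 120 h, when 26.6% of all genes fell, the numbers lower were 8 of 13, 5 of 6, 10 of 15 and 6 of 9, with SEC63 at -1.83 ± 0.20 and ERV29 at -1.96 ± 0.24, while 1 COPII gene rose. Without 24 h replicate 2, 3 of the 9 oligosaccharyltransferase genes fell. Degradation genes had 2 higher and 1 lower at 60 h and 3 higher and 1 lower at 120 h of 15, shares below those of all genes, and on the reference genes 0 higher at either time, with 1 lower at 60 h and 2 at 120 h. Over all 5656 genes on the reference genes, 2199 were called at 60 h (434 higher) and 2619 at 120 h (695 higher). On the deposited scale, 0 degradation genes passed at 60 h without 60 h replicate 1 or without 24 h replicate 2, and at 120 h 1 was higher without 120 h replicate 3.

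At 12 h against 1 h, when 26% of all genes rose and 33.9% fell, 7 of 15 degradation genes rose and 0 fell (DFM1, 2.11 ± 0.16, and UBX2, 1.71 ± 0.28, the largest), 6 of 9 oligosaccharyltransferase subunits rose and 0 fell (STT3, the catalytic subunit, 1.32 ± 0.19), and 3 of 6 O-mannosyltransferases rose and 0 fell (PMT3, 3.01 ± 0.29). Of the other folding enzymes 6 of 13 rose and 3 fell, with CPR5 (1.61 ± 0.19) and ERV2 (1.54 ± 0.19), another thiol oxidase of the ER, higher as ERO1 fell. Translocon and signal peptidase genes had 0 higher and 4 lower of 13, and the UPR control list 2 higher and 4 lower of 7. Of 15 COPII genes 5 rose and 1 fell. The 4 translocon genes lower and the 5 COPII genes higher are close to the shares over all genes. On the reference genes the numbers higher and lower were 5 and 0 for degradation, 3 and 0 for the oligosaccharyltransferase, 3 and 0 for the O-mannosyltransferases, 4 and 1 for folding enzymes, 0 and 1 for the translocon, 1 and 1 for COPII and 0 and 1 for UPR control. Over all 5656 genes on that scale, 2464 were called, 1065 of them higher. Leaving out 1 array gave as few as 1 translocon gene lower (without 12 h replicate 2 or 1 h replicate 1), 3 oligosaccharyltransferase genes higher (without 12 h replicate 3) and 1 higher and 2 lower in UPR control (without 12 h replicate 2 or 3 or 1 h replicate 1). The median change of all genes here was -0.11.

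With 7 means that share their arrays, likeness between genes is given as a description only. The genes whose 7 means correlated best with those of KAR2 were ACK1 (Pearson r 0.990), SKG3 (0.985), LDS2 (0.982), NRD1 (0.980) and YAP1 (0.979), and none of the other 9 genes was among them, ERO1 coming nearest with 0.79. Those closest to HAC1 were ATG1 (0.996), CUR1 (0.996), RRD1 (0.995), SEF1 (0.995) and SIZ1 (0.993). Within the 10 genes, HAC1 correlated with PDI1 at 0.71, with KAR2 at 0.58 and with ERO1 at 0.54. The other values were -0.05 (IRE1), -0.10 (LHS1), -0.34 (SIL1), -0.36 (EUG1), -0.70 (JEM1) and -0.93 (SCJ1).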

How the data were processed

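The authors deposited 1 log2 value per probe set for each of 21 one-colour arrays, made with RMA and the affy package, per the submitters' processing notes. Versions, parameters and which arrays were normalized together are not given in the sources used here. RMA gives arrays one distribution, so a change in total mRNA per cell cannot be seen. Of 9335 probe sets, 60 are controls, 328 match several genes and 6504 match 1 gene of the annotation used here. The probe set with the highest mean stood for its gene (5656 genes).

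A mean per time was fitted (lmFit and eBayes of limma 3.58.1, under R 4.3.3) to the 15 arrays of 24 to 340 h, or all 21 for comparisons with 1 h or 12 h. Comparisons with 24 h share its 3 arrays and are not independent. The precision is limited by 3 arrays per time. The 10 genes, the lists of other genes and the tests were chosen with earlier results of these data known. All 10 genes are described, up to 3 genes of a list are named by size among those that passed, and 5 genes most like KAR2 and HAC1. CNE1, SEC16, TRL1, SSM4, CDC48 and SBH1 were named after their values were seen.

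Replicate numbers 1 to 3 recur at every time without explanation. Deviations of same-numbered arrays correlated above 0.1 in all 3 pairs at 120 h with 60 h (0.16 or more) and at 340 h with 120 h (0.15 or more). The main fits left this pairing out in all comparisons, those included. The replicate number entered as a block only in a separate setting, so p-values given without mention of the block are unpaired.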

Additional observations from a re-analysis of the deposited data

How the results depend on the processing

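Of 26 calls of the 10 genes, 14 held under every other setting tried on the same probe sets, among them ERO1 and EUG1 at 12 h, ERO1 at 120 h, and KAR2, PDI1, ERO1 and HAC1 at 340 h. The numbers of the 10 genes called moved by more than 1.5 times as follows; the cause was not tested. Centred on 5 reference genes, the calls were 3 at 12 h against 1 h (7 as deposited), 1 at 48 h against 24 h (0), 4 at 340 h against 24 h (7) and 7 at 340 h against 120 h (2), where JEM1 reversed to 0.23. Centred on array medians, 4 were called for 340 h against 120 h. For 48 h against 24 h 1 was called (EUG1) with quantile normalization, without genes of a mean under 6, with all 21 arrays, with only the 2 groups and with the replicate block. Genes with a mean under 6 left out JEM1 and IRE1, and gave 1 for 340 h against 120 h. All 21 arrays gave 4 there, and only the 2 groups gave 3 for 120 h against 24 h (5). Array weights gave 1 at 24 h against 12 h (0), 3 at 48 h against 24 h, 3 at 60 h against 48 h (0), 4 at 120 h against 60 h (1) and 8 at 340 h against 120 h. The replicate block gave 4 for 340 h against 120 h, and moved no other count but that at 48 h by over 1.5 times. Leaving out 1 array in turn gave 5 to 7 for 12 h against 1 h, 0 to 1 for 48 h, 2 to 5 for 60 h, 3 to 6 for 120 h and 7 to 7 for 340 h against 24 h, 2 to 4 for 340 h against 120 h, and 6 to 9 for the F test (8).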
